A study of Mus musculus with 16 samples.

Results

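The genes that make retinoic acid from vitamin A, bind it and break it down were examined by the chromatin accessibility around them in 2 populations of small cell lung cancer (SCLC) cells. The 9 genes were Aldh1a1, Aldh1a2 and Aldh1a3 (synthesis), Rara, Rarb and Rarg (receptors), Crabp1 and Stra6 (carriage and uptake) and Cyp26b1 (breakdown). The regions described are the accessible sites, or peaks, whose centre lay nearer to a protein-coding start site of one of these genes than to that of any other gene. This gave 89 of the 80367 listed peaks. All 9 genes had at least 1 such peak, which 66.8% of all protein-coding genes did.

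Retinol enters cells partly through the receptor STRA6 and is oxidized to retinal. The ALDH1A dehydrogenases oxidize retinal to retinoic acid, CRABP1 binds retinoic acid in the cytosol, and CYP26 enzymes clear it. In the nucleus, RARα, RARβ and RARγ bind DNA with a retinoid X receptor at direct repeats of a short hexamer, and Rarb is a classical target gene of its own ligand. In the lung, retinoic acid acts in bud formation and in the growth of alveoli.

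ATAC-seq, in which the Tn5 transposase cuts open chromatin, was performed on tumor cells of TKO;Hes1 GFP/+ mice. Tumor cells of both populations are therefore taken to lack Rb, p53 and p130. The floxed alleles of these genes were targeted by an adenovirus, instilled into the airways, with Cre under the CMV promoter, which is not limited to 1 cell type. Deletion was not examined here in the 2 populations. Both carried GFP in 1 Hes1 allele, so that GFP reports the Notch target Hes1, and the tumors of a mouse were pooled some months after infection before the sort. GFPhigh cells (Hes1-GFP positive, non-NE) and GFPneg cells (Hes1-GFP negative, neuroendocrine or NE) came from the same tumors, as CD24-positive cells without CD45, CD31 and TER-119. The labels give 16 runs, which are 8 libraries on 2 lanes each, or 4 pairs of populations from 3 mice, of which 1 mouse gave 2 pairs. The deposited peaks are in an opened list (40828 peaks, more accessible in GFPhigh cells) and a closed list (39539 peaks, less accessible in them), and every one passed the limits of a change over 2-fold and an adjusted p under 0.001 in the comparison of the 2 groups. Values per library were not analysed here, so that depth is unknown, no value has an SD or n, and no group difference was tested again. In such bulk populations, fewer cells with an open site and a less open site in each cell cannot be told apart.

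The sequence of the textbook case among these genes lies in the reference genome, so its presence is not a result of these data. Of the 89 peaks, 1 held a direct repeat of the receptor hexamer (each copy AGGTCA or the variant GGGTCA or the variant AGTTCA or the variant GGTTCA, both copies in 1 direction, both strands searched) with 5 bases between the copies, and this was the opened promoter peak of Rarb. The RefSeq promoter of Rarb (GRCm38.p6, chr14:16575427-16575726, minus strand) lies within this peak and is shown with the repeat in capitals.

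Rarb promoter: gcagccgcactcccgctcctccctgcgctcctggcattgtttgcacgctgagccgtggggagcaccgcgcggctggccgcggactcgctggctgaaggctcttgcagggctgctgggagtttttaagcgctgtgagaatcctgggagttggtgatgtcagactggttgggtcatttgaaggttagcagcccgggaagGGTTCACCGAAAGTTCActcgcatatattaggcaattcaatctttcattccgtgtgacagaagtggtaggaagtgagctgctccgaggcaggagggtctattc

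The repeat (chr14:16575513-16575529) runs from base -53 to base -37 relative to the RefSeq start site at 16575476, and from base 14 to base 30 downstream of the GENCODE start site of transcript Rarb-201 at 16575543. Such a repeat was found in 0.399% of all opened peaks, in 0.0784% of all closed peaks and in 0.0974% of 32851 RefSeq promoters of the same length. No peak of the 9 genes held a repeat with 1 or 2 bases between the copies, which 0.279% and 0.311% of all opened peaks did. A match or its absence describes letters only, not binding.

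Of the 89 peaks, 53 were opened and 36 closed, an opened share of 59.6% (95% Wilson interval 49.2% to 69.1%, counting error only, with peaks of 1 gene sharing a locus), against 50.8% of all listed peaks. The interval held the background. The share was 64.3% without the 33 peaks of Rarb and 52.6% without the 13 peaks of Rara. The balance differed by role: the receptors had 37 opened and 16 closed peaks, the synthesis genes 9 and 15, Crabp1 and Stra6 together 0 and 3, and Cyp26b1 7 and 2. Of the 10 peaks within 1 kb of a start site, called promoter peaks here, 8 opened ones were at receptor genes and 1 at Cyp26b1, and the closed one was at Aldh1a3. Promoter peaks were mostly opened in all listed peaks too, with 7693 opened and 2664 closed.

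**Figure D1:**
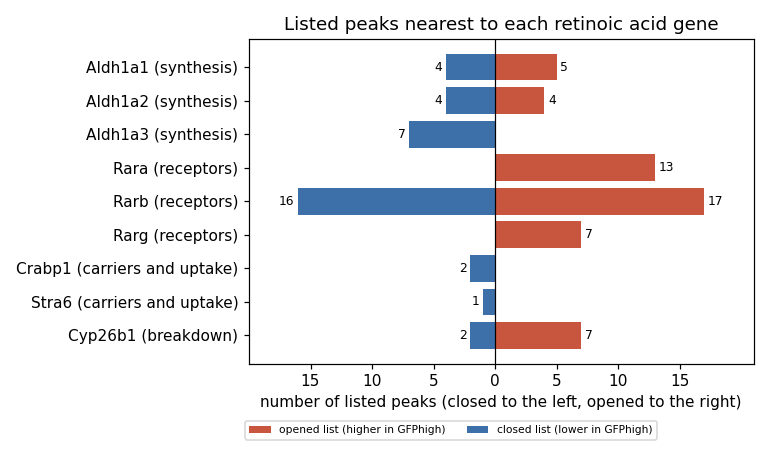
Number of listed peaks assigned to each of the 9 genes, with closed peaks drawn to the left and opened peaks to the right of 0. Rara and Rarg had opened peaks only (13 and 7), Aldh1a3 had closed peaks only (7), and Rarb had 17 opened and 16 closed.

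The 3 synthesis genes had different patterns. Aldh1a3 had 7 closed peaks and no opened one. Among the 3688 genes with at least 7 listed peaks, 11.8% had closed peaks only, so that all-closed genes were not rare among them. The promoter peak (chr7:66427370-66427739, centre at -0.037 kb, minus meaning upstream of the start site) had a mean normalized count of 122, the mean over all samples of both groups of the reads in the peak after scaling for depth. Whether these samples were the 8 libraries or their 16 runs is not given in the sources used here, which bears on the size of every count. Divided by the width it was 33.0 per 100 bp, above 95.1% of all closed peaks. Promoter peaks ran higher in general, with a median of 17.0 in all closed promoter peaks against 10.8 in all closed peaks. A closed promoter peak was present in 8.46% of protein-coding genes. The highest count of the gene, 139 or 27.8 per 100 bp, was in an intergenic peak at -50.2 kb (chr7:66477481-66477980). The other 5 peaks lay at 8.65 and 6.70 kb inside an intron and at -21.0, -22.7 and -117 kb. The surroundings were not closed: of the 105 other listed peaks within 1 Mb, 53.3% were opened, and Lrrk1, the next coding gene toward the 3′ side, had 2 opened peaks and no closed one. Asb7, on the 5′ side, had 2 closed peaks.

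The promoter peak of Aldh1a3 and the distal peak at -50.2 kb are shown as the closed elements with the highest counts of the gene. The first stretch (mm10, chr7:66427495-66427614, minus strand) covers the start site at 66427517. The second (chr7:66477652-66477771, minus strand) has in capitals both copies of TGANTCA, the core bound by AP-1 factors.

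Aldh1a3 promoter peak: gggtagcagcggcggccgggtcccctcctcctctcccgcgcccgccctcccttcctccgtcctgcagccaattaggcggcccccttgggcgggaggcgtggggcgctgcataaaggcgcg
Aldh1a3 peak at -50.2 kb: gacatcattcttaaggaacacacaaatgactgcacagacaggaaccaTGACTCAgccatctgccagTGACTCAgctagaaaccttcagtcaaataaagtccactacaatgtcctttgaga

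Aldh1a1 had 5 opened and 4 closed peaks and none at a promoter. All but 1 were intronic. The highest count, 93.8 or 25.0 per 100 bp, was in the closed peak at 48.3 kb downstream of the nearest start site (chr19:20650061-20650435), in the intergenic region beyond the gene, and the highest opened count was 76.8, or 15.2 per 100 bp, at -42.8 kb from the nearer of its 2 start sites. The nearest closed peak was at 14.5 kb and the nearest opened one at -17.8 kb. Its region was mostly closed, with 35.0% of 60 other peaks within 1 Mb opened and 6 opened and 15 closed peaks at Anxa1 beside it.

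Aldh1a2, the dehydrogenase with the main part in the embryo, had 4 opened and 4 closed peaks, also none at a promoter, and a highest level of 13.0 per 100 bp. That was an opened intronic peak at 54.2 kb (chr9:71269768-71270301, count 69.4). The closed peak with the highest count (38.3) was intronic too, at 46.0 kb, and was the closed peak nearest to the start site, while the nearest opened one was at -4.73 kb with a count of 8.32. With peaks assigned to start sites of any gene type, non-coding ones included, Aldh1a1 kept 4 peaks, 25.0% opened, and Aldh1a2 3 peaks, 100% opened, so that the balance at both depended on the assignment.

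The receptor genes carried most of the opened peaks. Rara had 13 opened peaks and no closed one. Among the 1568 genes with at least 13 listed peaks, 3.38% had opened peaks only. Its surroundings were nearly as opened, since 129 of the 133 other listed peaks within 1 Mb (97.0%) were opened, as were 71.1% of all peaks of chromosome 11 and 79.9% of those from 50 Mb on. None of its promoter peaks was at the most 5′ start site, 98927818. The peak over the internal start site at 98937698 (chr11:98937454-98937819, -0.062 kb) had a mean normalized count of 280, and its 76.6 per 100 bp was the highest of all 89 peaks and above 98.3% of all opened peaks. A second promoter peak at 0.516 kb from a start site (chr11:98938057-98938411) had 113, or 32.0 per 100 bp. Another lay over the start site at 98960412 (chr11:98960308-98960811, 0.147 kb) with 163, or 32.3 per 100 bp. An opened promoter peak was present in 26.6% of protein-coding genes. All opened promoter peaks had a median of 34.3 per 100 bp, against 14.4 in all opened peaks.

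Rarg, the main receptor of the epidermis, had 7 opened peaks and no closed one, as 9.25% of the genes with at least 7 peaks did. Of the 7, 4 were promoter peaks. The peak over the 5′ start site (chr15:102257156-102257943, -0.032 kb) had the highest count, 310 or 39.3 per 100 bp, and the peak at -0.638 kb from the internal start site (chr15:102246896-102247380) the highest level, 61.0 per 100 bp, above 96.1% of all opened peaks. The other promoter peaks were lower, with 22.2 per 100 bp at 0.092 kb and 20.2 at -0.729 kb. The lowest of the 7 was thus above the median of all opened peaks, 14.4. Of the 143 other peaks within 1 Mb, 82.5% were opened. The stretch nearest to Rarg held 282 peaks per Mb and that nearest to Rara 242, against 29.5 for all listed peaks over whole chromosomes. These are unlike measures, since the 2 stretches are short (24.8 and 53.7 kb) and lie around start sites.

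**Figure D2:**
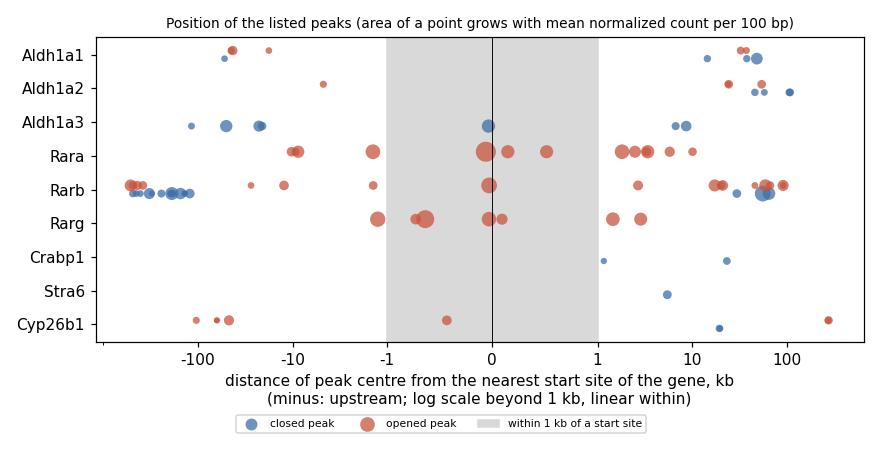
Distance of each peak centre from the nearest start site of its gene in kb (minus is upstream, linear within 1 kb and logarithmic beyond), with 1 point per peak, coloured by list and with an area that grows with the mean normalized count per 100 bp. The receptor genes hold 8 opened peaks inside the grey band of 1 kb, and Aldh1a3 the only closed one. The closed peaks of Rarb lie mostly over 100 kb upstream of its internal start sites.

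Rarb had 33 listed peaks, 17 opened and 16 closed, more than 98.9% of the 14580 genes with any (median 3). The pattern followed position. The promoter peak with the direct repeat (chr14:16575242-16575907, -0.031 kb) was opened, with a count of 310 and 46.6 per 100 bp, above 91.8% of all opened peaks. It covers the internal start sites of Rarb-201 and Rarb-207 (16575543 and 16575827). The coding transcripts Rarb-203 and Rarb-204, which are not in the basic annotation used for the assignment, start far upstream at 16819156 and 16819005, and the peak there (chr14:16818672-16819062) was closed, with a count of 41.6 and 10.6 per 100 bp. Its centre lay 289 bp and 138 bp downstream of the 2 upstream starts.

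Along the gene, 10 of 13 peaks from the internal start sites to the 3′ end were opened. Between the internal and the upstream start sites, inside the gene body of the full annotation, 3 of 11 were opened, and upstream of the gene 4 of 9. In order along the chromosome, 8 opened peaks in a row, from 21.1 kb downstream to -27.5 kb, were followed by 10 closed peaks in a row, from -122 to -326 kb, and further upstream the lists alternated. Within 100 kb of a start site used for the assignment 13 of 16 Rarb peaks were opened (81.25%), and beyond it 4 of 17 (23.5%). The upstream starts of Rarb-203 and Rarb-204 were not among these. The closed peak beside them, and others of the closed run near them, thus counted as beyond 100 kb, so that the split rests on the internal start sites. All listed peaks had a gradient in the same direction, with 55.7% opened within 100 kb and 32.5% beyond. The closed peak with the highest level of the 89 was nonetheless downstream, in an intron at 55.8 kb (chr14:16519685-16519897, count 101, 47.3 per 100 bp), and the closed Rarb peak with the highest count was at -326 kb (chr14:16901657-16902270, count 135, 22.0 per 100 bp). The nearest closed peak was at 29.7 kb. Of the 28 other listed peaks within 1 Mb 67.9% were opened, and Top2b beside it had 8 opened and 1 closed.

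**Figure D3:**
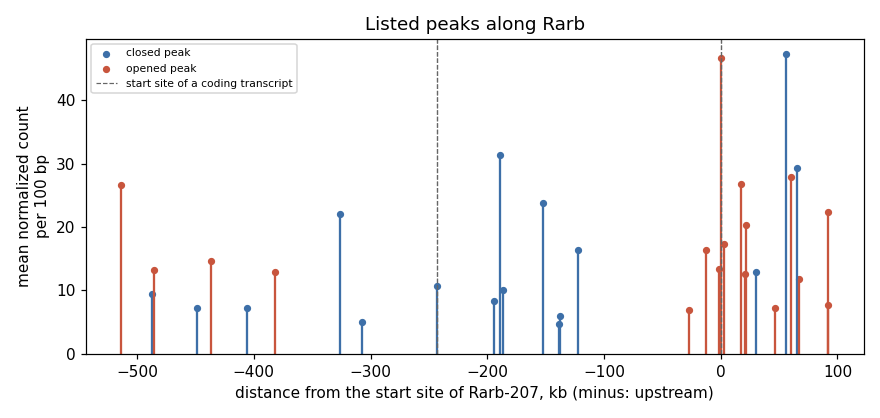
Mean normalized count per 100 bp of the 33 Rarb peaks against their distance in kb from the start site of Rarb-207 (minus is upstream), coloured by list, with dashed lines at the starts of the coding transcripts. Opened peaks cluster around the internal starts, a run of 10 closed peaks lies between -122 and -326 kb, and the opened promoter peak (46.6) and a closed intronic peak (47.3) are the highest.

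The short cores in the opened and closed elements of Rarb were counted, with their shares in all listed peaks given further on. CATTCC, the core of TEAD sites, was present in 8 of 17 opened and 1 of 16 closed Rarb peaks, and TGANTCA in 2 of 17 opened and 9 of 16 closed ones. TGTTTAC, the core of FOX sites, was in 1 and 4, and TGGGAA in 5 and 4. The stretches of 120 bases with most copies of CATTCC (opened) or TGANTCA (closed) in the peaks of Rarb and Rarg, and among equals the peak with the highest level, are given to show both arrangements. They come from the opened Rarb peak at -27.5 kb (mm10, chr14:16603302-16603421, minus strand), the closed Rarb peak at 55.8 kb (chr14:16519727-16519846, minus strand) and the opened Rarg peak at -0.638 kb (chr15:102247003-102247122, minus strand). Capitals mark every copy, on either strand, of these 4 cores, of which TGGGAA is that of the Notch effector RBPJ.

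Rarb opened peak at -27.5 kb: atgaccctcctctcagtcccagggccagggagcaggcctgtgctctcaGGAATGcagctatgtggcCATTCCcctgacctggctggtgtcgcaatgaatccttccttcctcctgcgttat
Rarb closed peak at 55.8 kb: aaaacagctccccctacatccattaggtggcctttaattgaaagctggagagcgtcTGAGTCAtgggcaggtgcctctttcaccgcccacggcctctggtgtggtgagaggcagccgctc
Rarg opened peak at -0.638 kb: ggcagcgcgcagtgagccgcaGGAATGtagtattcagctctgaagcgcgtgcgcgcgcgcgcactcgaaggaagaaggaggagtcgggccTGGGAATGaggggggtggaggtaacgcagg

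Over all 9 genes the cores followed their list. CATTCC was in 18 of 53 opened peaks (34.0%, against 25.4% of all opened peaks) and in 5 of 36 closed peaks (13.9%, against 12.0%). TGANTCA was in 5 opened peaks (9.43%, against 15.1%) and in 14 closed peaks (38.9%, against 29.9%). TGTTTAC was in 4 opened (7.55%, against 9.50%) and 5 closed peaks (13.9%, against 11.4%), and TGGGAA in 20 opened (37.7%, against 30.6%) and 7 closed peaks (19.4%, against 21.5%). The direction of each difference between opened and closed peaks was thus that of all listed peaks. Without Rarb CATTCC was in 10 of 36 opened and 4 of 20 closed peaks, TGANTCA in 3 of 36 and 5 of 20, TGGGAA in 15 of 36 and 3 of 20, and TGTTTAC in 3 of 36 and 1 of 20, where the order turned. CATTCC and TGGGAA can overlap on opposite strands, which they did in 3 of the 8 peaks with both. Of the 32851 RefSeq promoters 14.7% held CATTCC, 7.81% TGANTCA, 3.65% TGTTTAC and 25.6% TGGGAA. Wider peaks have more room for a match, and the median width was 297 bp in the opened and 285.5 bp in the closed peaks of the 9 genes. It was 300 bp in all opened and 248 bp in all closed peaks. In the central 200 bp of each peak, TGANTCA was in 3.77% of opened (against 10.6%) and 27.8% of closed peaks (against 26.4%). TGGGAA was there in 28.3% of opened (against 20.7%) and 8.33% of closed peaks (against 16.3%).

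**Figure D4:**
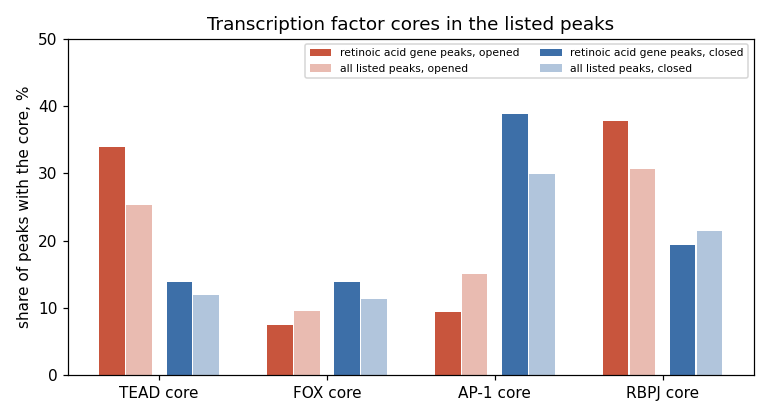
Share in percent of opened (red) and closed (blue) peaks that hold each core on either strand, in dark for the peaks of the 9 genes (53 opened, 36 closed) and in pale for all listed peaks. The TEAD core (34.0% and 13.9%) and the AP-1 core (9.43% and 38.9%) differ between the lists in opposite directions, as in all listed peaks.

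Crabp1 and Stra6 had few peaks, all closed. Crabp1 had 2, in its body at 1.17 kb (chr9:54765774-54766054, count 16.8, 5.99 per 100 bp) and at 23.3 kb (chr9:54787882-54788177, count 29.4, 9.92 per 100 bp). Stra6 had 1, in an intron at 5.47 kb (chr9:58140012-58140251, count 32.1, 13.4 per 100 bp). The surroundings of both were mostly opened, with 65.0% of 40 and 70.4% of 98 other peaks within 1 Mb. Counts of 1 or 2 peaks carry little weight, and when any peak inside the gene body or within 10 kb of it was counted Stra6 had 6, of which 33.3% were opened.

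Cyp26b1, which oxidizes retinoic acid, had 7 opened and 2 closed peaks. The promoter peak (chr6:84588952-84589191, -0.433 kb from an internal start site) was opened, with a count of 39.8 and 16.6 per 100 bp, near the median of opened peaks. The highest count, 154 or 18.4 per 100 bp, was in an opened peak at -47.0 kb (chr6:84640471-84641306), which lies in an intron of Exoc6b. The closed peaks were next to each other at 19.3 and 19.8 kb, with counts of 22.5 and 13.6. Within the gene body or 10 kb of it only 3 peaks remained, of which 33.3% were opened, so that its high opened share (77.8%) came from peaks far from the gene.

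**Figure D5:**
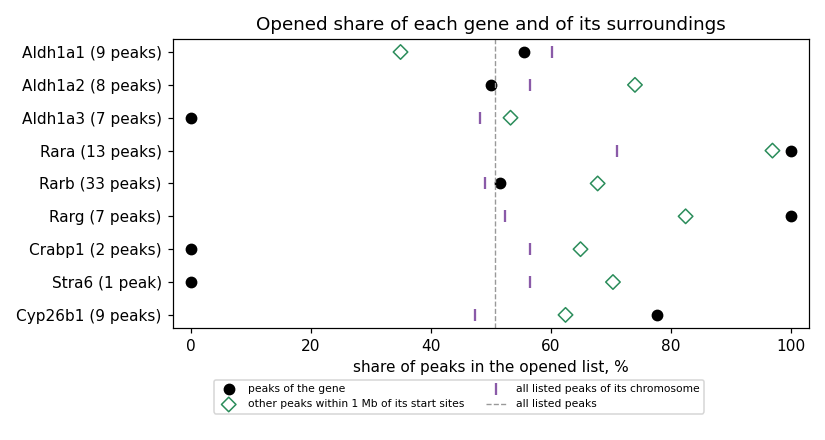
Share of peaks in the opened list in percent for each gene (black points), for the other listed peaks within 1 Mb of its start sites (green diamonds) and for its whole chromosome (purple bars), with a dashed line at the 50.8% of all listed peaks. Rara (100%) lies beside its surroundings (97.0%), and Aldh1a3 (0%) lies apart from its own (53.3%).

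In level, the opened peaks of the 9 genes were close to all opened peaks, with a median of 15.9 per 100 bp (range 3.72 to 76.6) against 14.4. The closed ones had a median of 9.97 (range 4.77 to 47.3) against 10.8, an order that turned for counts not divided by width (30.7 per peak, against 25.8). The 9 opened promoter peaks had a median of 32.3, against 34.3 in all opened promoter peaks, and the 44 opened peaks beyond 1 kb had 13.3, against 12.2. The mean covers both groups and does not give the level in either.

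Of 24 other genes of the retinoid pathway, 19 had listed peaks, in all 124 opened and 56 closed (68.9% opened, against 50.8% of all listed peaks). An opened promoter peak was present at 9 of the 24, against 26.6% of protein-coding genes, and a closed one at 1, against 8.46%. The retinoid X receptors, the partners of the RARs, had 17 opened and 2 closed peaks, most of them at Rxra (16 and 2), where the peaks included 2 opened promoter peaks. The genes of retinol and retinal metabolism had 45 opened and 14 closed peaks, led by Dhrs3, which reduces retinal back to retinol (21 and 5). The carriers had 2 opened and 7 closed peaks, and Cyp26a1 2 and 4. Of the cofactors (58 and 29), Nrip1, a corepressor of nuclear receptors, had 18 and 17.

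Defining markers of the sorted populations were also examined. Hes1, the sorted gene, had 26 opened and 11 closed peaks with an opened promoter peak, and neuroendocrine markers had 60 closed peaks of 71, with a closed promoter peak at 7 of 8 genes. Peaks at markers of other cells, to be read against the 50.8% opened of all listed peaks, were in both lists: 22 of 26 club cell, 23 of 26 AT1, 16 of 17 AT2 and 14 of 19 leukocyte marker peaks were opened, while 43 of 55 endothelial, 15 of 23 ciliated, 13 of 23 fibroblast and 4 of 5 mesothelial ones were closed. Of the closed ciliated peaks 13 were at Dnah5 and 2, both promoter peaks, at Tppp3. Tppp3 also had 2 opened peaks, and Foxj1 had 4 opened and 0 closed. Itgam, Pdgfrb, Lum, Tcf21, Msln and Syp had no listed peak. The part of such cells in the results above was not tested.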

How the data were processed

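ATAC-seq reads were processed by the authors: per their methods and the submitters' processing notes, reads were trimmed, aligned to mm10 with Bowtie2 2.3.4.1, freed of duplicates with Samtools, called as narrow peaks with MACS2 with reads shifted and extended around the Tn5 cut, merged over samples, counted per peak with bedtools and compared with DESeq2 1.28.1. As signal, the authors deposited for each peak its average size-factor-scaled count across all samples (libraries or their lanes, which is not stated). The log2 fold changes and the adjusted p-values that the authors deposited were read only to check that all 80367 peaks pass their limits with the sign of their list. Those columns, and the standard errors, test statistics and raw p-values beside them, are results of the authors' own comparison and are not reported here.

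Positions are 1-based on mm10. Each peak went to the coding gene whose start site was closest to its centre (GENCODE M21, basic transcripts), and promoter peaks lay within 1 kb of such a start site. Sequences came from the GRCm38.p6 genome and from RefSeq promoters, which matched 8 of the 9 genes. Cores were searched without mismatch, and the search and the assignment were tested on simulated data. The opened share of all 89 peaks has a Wilson interval at 95%, and the other shares have none. No group test was run, as values per library were not analysed here, and counts over peaks that share a locus are descriptions. Peaks outside the lists were not analysed here. Named peaks were the promoter peaks and, per gene and list, the peak with the highest count and the one nearest the start site; others were named after their values were seen. Values of some single genes of the lists are not reported here. Members and gene lists were chosen with earlier results of these data known. Alternatives were other assignments, limits on count, width and distance, merging, a 3 kb promoter, the central 200 bp and levels per peak. Tables were computed with pandas 2.3.3 and numpy 2.4.6 under Python 3.11.15, intervals with scipy 1.17.1 and plots with matplotlib 3.10.9.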

Additional observations from a re-analysis of the deposited data

How the results depend on the processing

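Of 25 summary values recomputed under an alternative, 18 stayed within the counting interval of the share reported or near the count reported. The median of the closed peaks turned, from percentile 44.4 of all closed peaks per 100 bp to percentile 57.3 per peak, without division by width. Assignment to the nearest start site of any gene type left 55 of the 89 peaks. With peaks at most 100 kb from a start site the opened share was 69.7%, against 55.7% of all listed peaks within that distance. Promoter peaks within 3 kb numbered 17 opened and 2 closed. In the central 200 bp, TGANTCA was present in 13.5% of the peaks, against 21.3% in whole peaks, TGGGAA in 20.2%, against 30.3%, and TGTTTAC, still within its wide interval, in 5.62%, against 10.1% (in 1 of the 53 opened peaks, against 4), as fewer bases were searched. Rara and Rarg had opened peaks only and Crabp1 closed peaks only under all 6 assignments and filters, while the opened share of Aldh1a3 reached 25.0% (gene body or within 10 kb of it) and that of Rarb reached 81.25% (at most 100 kb). Opened shares without the peaks of Rarb or of Rara were added after seeing the data. No paired analysis was possible because the files used here hold values of the whole comparison of the 4 pairs and none per library, and for the same reason no replicate was left out. Depth per library is unknown.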
